A study of Mus musculus with 22 samples.

Results

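Gene expression in the colon of mice that lack PPAR γ in intestinal epithelial cells was compared with that of mice that keep it, before any DSS was given. The comparison used 6 of the 22 Affymetrix mouse arrays of the study, chosen by their labels alone, namely the 3 arrays of Villin Cre+ mice (VC+) and the 3 arrays of Villin Cre- control mice (VC-) at day 0. The mice of both groups carried PPAR γ fl/fl alleles. The study used mice of a mixed FVB/C57BL/6 and of a C57BL/6 background, and the paper does not state which gave the arrays. In VC+ mice a Villin-driven Cre recombinase deletes the floxed allele in intestinal epithelial cells, and VC- mice lack the Cre, so the recombinase and the deletion cannot be told apart here. Neither group received dextran sodium sulfate (DSS), the agent given at 2.5% in drinking water to the mice of days 2 and 7 (9 VC+ and 7 VC- arrays) to injure the colon. The RNA came from homogenized tissue, labelled colonic mucosa, so cells in which Villin Cre is not active contributed to every value, and fewer cells of a type cannot be told apart from less RNA per cell. The age and sex of the mice, and whether each array is a separate mouse, are not given in the sources used here, and the p-values cover no more than the spread among these samples.

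PPAR γ is a nuclear receptor that binds fatty acids and their derivatives. It pairs with a retinoid X receptor (RXR) on repeats of the hexamer AGGTCA, recruits coactivators in place of corepressors, and switches on genes for the uptake, storage and burning of lipids. In the gut it is most abundant in the epithelium of the colon, where it is also known as a brake on inflammatory signaling.

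Pparg itself, measured by 1 probe set, had a log2 signal of 8.62, 8.50 and 8.83 on VC+ replicates 1, 2 and 3, and of 9.63, 9.58 and 9.61 on VC- replicates 1, 2 and 3. All VC+ arrays lay below all VC- arrays. The difference (VC+ minus VC- throughout) was -0.96 on the log2 scale, a 1.95-fold lower signal, with a standard error of 0.85 and an adjusted p of 0.934 in limma. This standard error is far larger than the spread within the day 0 groups (SD of 0.17 in VC+ and 0.026 in VC- mice, n = 3 each), because 1 variance over all 22 arrays serves each gene and Pparg varied widely at days 2 and 7. The place of the probe set relative to the floxed exons is not given in the sources used here, and transcripts without those exons may still be detected, so this signal does not measure how complete the deletion was.

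Arrays of the same genotype also differed from each other. Of 9 genes that define colonic epithelium, Vil1, Epcam, Cdh1, Krt20, Cdx2, Car1 and Muc2 were detected on all 6 arrays (Vil1 between 12.02 and 12.43, Muc2 between 15.29 and 15.79), whereas Aqp8 and Slc26a3 were low on some VC+ arrays, as described below. Hoxb13, a homeobox gene of the most distal gut, had a signal of 12.42 on VC+ replicate 1 but of 3.09 and 2.88 on VC+ replicates 2 and 3, against 7.29, 9.13 and 9.67 on the VC- arrays. By this gene VC+ replicates 2 and 3 thus stood apart from the other 4 arrays, and VC+ replicate 1 was above every VC- array. Xist, which marks an inactive X chromosome, was high on VC+ replicate 3 and VC- replicate 2 only. Prss2, a trypsinogen of the pancreas, was 13.77 on VC- replicate 3 and 3.62 to 3.82 on the others. Smooth muscle genes were abundant in tissue labelled as mucosa, with Tpm2, a tropomyosin, between 13.82 and 14.79.

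**Figure D1:**
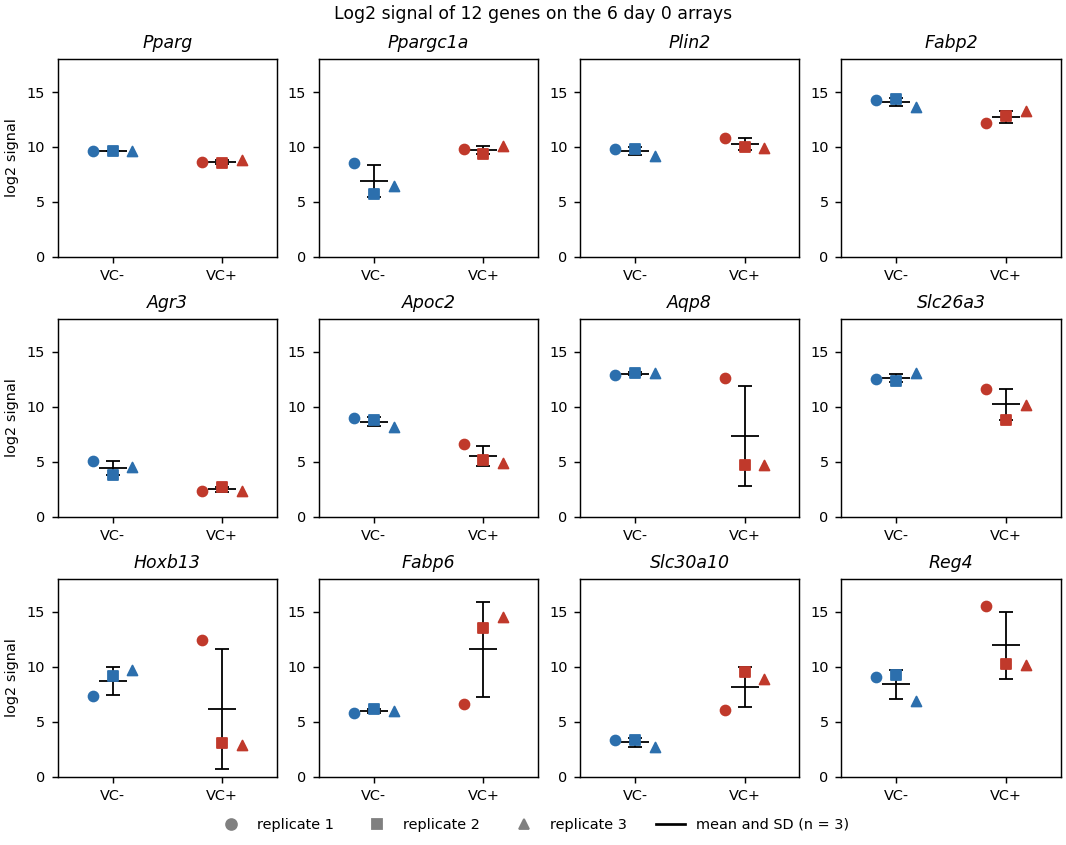
Log2 signal (vertical axis) of 12 genes on the 6 day 0 arrays, with VC- arrays in blue and VC+ arrays in red, a symbol for each replicate, and bars for the mean ± SD (n = 3). Pparg separates the groups by about 1 unit, whereas in the panels of Aqp8, Hoxb13 and Fabp6 replicate 1 of VC+ mice lies far from replicates 2 and 3.

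Of 9097 genes tested, 1 passed limma's test between genotypes at day 0 (0.011% of the genes tested), and it was lower in VC+ mice. Before adjustment, 600 genes (6.6%) had a p under 0.05, of which 345 (3.79%) were higher and 255 (2.8%) lower in VC+ mice. All VC+ arrays lay above all VC- arrays for 879 genes (9.66%) and below them for 967 genes (10.6%), so that the groups did not overlap for 20.3% of the genes. These shares are the background for the counts of genes above and below in the gene lists that follow. The median difference over all genes tested was -0.0068, and 49.2% of the differences were positive. The count depends on how the arrays are weighted. With array quality weights, which gave VC+ replicate 2 the most and VC+ replicate 1 the least weight of the 6 arrays (3.88 and 0.72), limma called 686 genes, 408 higher (4.48%) and 278 lower (3.06%). Without the filter on variance it called 3 of 18194 genes (0.0165%). When each of the 6 arrays was left out in turn, the count ranged from 0 to 3.

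**Figure D2:**
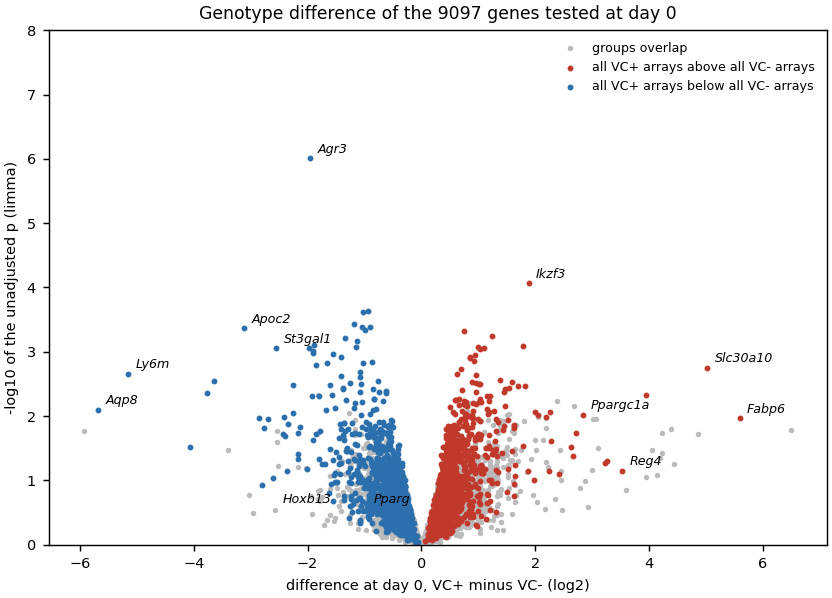
Difference in log2 signal between VC+ and VC- mice at day 0 (horizontal axis) against -log10 of the unadjusted limma p (vertical axis) for the 9097 genes tested, colored by whether the groups overlap. Agr3 lies above all other genes in p, whereas Aqp8 and Fabp6, with the largest differences among genes whose groups do not overlap, have moderate p-values.

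Agr3 was the gene called. It encodes a protein disulfide isomerase of secretory and ciliated epithelial cells (chromosome 12). Its log2 signal was 5.02, 3.78 and 4.48 on the VC- arrays and 2.32, 2.73 and 2.37 on the VC+ arrays. The difference was -1.95 (standard error 0.27, adjusted p = 0.00885 in limma). All VC+ arrays and VC- replicate 2 were under a log2 signal of 4, the level of genes with little or no transcript here, so its size is poorly measured. The call was lost without VC+ replicate 3 (adjusted p = 0.102), VC- replicate 1 (adjusted p = 0.0681) or VC- replicate 3 (adjusted p = 0.0866), and with only the day 0 arrays in the model (adjusted p = 0.212). Its relative Agr2, which goblet cells need to make mucin and which was chosen after its values were seen, was 14.49 to 14.81 in VC+ and 14.61 to 15.00 in VC- mice.

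Among 15 receptors, partners and coregulators of PPAR γ on the array, 12 were tested and none was called, with 3 above, 2 below and a median difference of 0.33 (0.17 without VC+ replicate 1). Ppargc1a encodes PGC-1α, a coactivator of PPAR γ that drives mitochondrial genes (chromosome 5). Its signal was 9.84, 9.34 and 10.07 on the VC+ arrays and 8.57, 5.74 and 6.41 on the VC- arrays. All VC+ arrays were higher, by 2.84 on average (standard error 0.99, adjusted p = 0.663), and VC- replicate 1 came close to them. The 4 other probe sets of Ppargc1a also separated the groups, with differences from 0.84 to 1.59, and on these VC- replicate 1 resembled the other VC- arrays. Nrip1, a corepressor of nuclear receptors, was 8.90, 8.61 and 8.84 in VC+ against 8.50, 7.55 and 8.12 in VC- mice. The coactivator subunit Med1 differed by 0.16, also without overlap. The coactivator gene Ncoa2 was lower by 0.40 with the probe set kept here, a direction that turned with the brightest probe set (0.093). The relatives Ppara and Ppard and the partner Rxra had differences of 0.73, 0.50 and 0.57, and in each case the groups overlapped. That of Ppara was -0.34 on VC+ replicate 1.

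Genes of lipid uptake and lipid droplets leaned lower in VC+ mice, with a median of -0.32 over 27 genes tested. The median was -0.15 without VC+ replicate 1, and the mean level of the list on VC+ replicate 3 was 0.34 above that of VC- mice. Of the 27, 6 lay below, 3 above (Plin2, Plin3 and Fabp6) and none was called. Fabp2, the fatty acid binding protein of enterocytes (chromosome 3), was 12.14, 12.82 and 13.23 in VC+ mice and 14.29, 14.34 and 13.64 in VC- mice. This is a difference of -1.36 (standard error 0.97, adjusted p = 0.877), and all VC+ arrays were lower. Fabp5, a fatty acid carrier that delivers ligands to nuclear receptors, was lower by 0.55. G0s2, an inhibitor of triglyceride lipase, was lower by 0.46, and Dgat2, which makes triglycerides, by 0.39, a direction that turned with its brightest probe set (0.096). Acsl3, which activates fatty acids for lipid droplets, was lower by 0.87, and Cideb, which enlarges lipid droplets, by 0.40, and the groups did not overlap for any of these. Plin2, which coats lipid droplets and is a PPAR target, went the other way with 10.85, 10.01 and 9.91 in VC+ and 9.83, 9.78 and 9.17 in VC- mice. Its difference was 0.66 (standard error 0.32, adjusted p = 0.751), and 0.37 without VC+ replicate 1. Fat tissue varied between arrays of one genotype, since its hormone gene Adipoq was 2.47 on VC+ replicate 2 and 8.05 and 9.16 on VC+ replicates 1 and 3. Its part in the median was not tested.

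Genes of fatty acid oxidation and ketone synthesis had a median difference of 0.16 over 26 genes tested, with 6 above and 1 below. The 6 were Crat, Cpt2, Hadha, Acadvl, Hadhb and Hadh, all of them mitochondrial enzymes of fatty acid transport or oxidation, with differences of 0.69, 0.56, 0.47, 0.34, 0.33 and 0.13, the last of which turned with the brightest probe set (-0.12). Crat, carnitine acetyltransferase, was 7.37, 7.12 and 7.73 in VC+ and 7.07, 6.70 and 6.38 in VC- mice (adjusted p = 0.678). Vnn1, a pantetheinase, lay below by 0.80. The list moved with VC+ replicates 2 and 3, since its median was 0.40 on those arrays and -0.08 on VC+ replicate 1, and without replicate 1 the list had 14 genes above, against 18.6% of all genes tested.

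The largest difference in each direction among genes without overlap belonged to a gene on which VC+ replicates 2 and 3 stood apart. Aqp8, a water channel of surface colonocytes (chromosome 7), was 12.59, 4.72 and 4.67 on the VC+ arrays and 12.88, 13.04 and 13.11 on the VC- arrays. The difference of -5.68 (standard error 1.91, adjusted p = 0.663) thus rests on VC+ replicates 2 and 3, the arrays with low Hoxb13. Fabp6, the bile acid binding protein of the ileum (chromosome 11), was 6.64, 13.52 and 14.57 in VC+ and 5.77, 6.19 and 5.99 in VC- mice, a difference of 5.59 (standard error 1.98, adjusted p = 0.663). The zinc and manganese exporter Slc30a10 (chromosome 1) was 6.08, 9.48 and 8.85 in VC+ and 3.34, 3.31 and 2.66 in VC- mice, and here VC+ replicate 1 was also higher, by 2.97. Other genes of bile acid handling and a calcium binding protein gene, chosen after their values were seen, had the same pattern with overlapping groups. The bile acid importer Slc10a2 was 4.02, 12.25 and 12.00 in VC+ against 3.93 to 6.35 in VC- mice. The exporter subunit Slc51a was 3.71, 11.12 and 11.11 against 3.71 to 4.53. S100g, an intestinal calcium binding protein, was 3.67, 11.78 and 12.28 against 1.85 to 4.05. Of the Hox genes, Hoxa9 (10.49, 7.19 and 7.46 in VC+, 10.66 to 10.99 in VC- mice) and Hoxa10 (8.17, 5.76 and 6.05, against 8.22 or more) were lower on VC+ replicates 2 and 3, whereas Hoxd10 was 7.33 and 7.30 on these arrays and between 2.42 and 2.45 on the other 4. How far position along the colon, rather than genotype, sets these differences was not tested. With a term for Hoxb13 in the model the difference was -4.42 for Aqp8, 4.33 for Fabp6 and 4.67 for Slc30a10. This term is a common slope over the arrays of all days, and Hoxb13 also differed between the genotypes at day 2. The adjusted values thus do not test position. On VC+ replicate 1, the VC+ array with high Hoxb13, the differences were -0.42 for Aqp8, 0.66 for Fabp6 and 2.97 for Slc30a10. Its Hoxb13 signal was above that of every VC- array, so this array is not matched to them by that gene.

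The promoters of the transport genes Aqp8, Slc26a3 and Fabp6 and of Agr3, the gene called, are shown because the deleted receptor binds repeats of AGGTCA and these genes had some of the largest differences, lower for Aqp8 and Slc26a3 and higher for Fabp6. Each is a window of 300 bases that spans the transcription start (RefSeq, GRCm38.p6). They are those of Aqp8 (chr7:123462044-123462343, plus strand), Slc26a3 (chr12:31437969-31438268, plus strand), Fabp6 (chr11:43601513-43601812, minus strand) and Agr3 (chr12:35925371-35925670, plus strand). Capitals mark the hexamer AGGTCA or the letters CAATAAA, to which posterior Hox and Cdx proteins bind, on either strand.
Aqp8: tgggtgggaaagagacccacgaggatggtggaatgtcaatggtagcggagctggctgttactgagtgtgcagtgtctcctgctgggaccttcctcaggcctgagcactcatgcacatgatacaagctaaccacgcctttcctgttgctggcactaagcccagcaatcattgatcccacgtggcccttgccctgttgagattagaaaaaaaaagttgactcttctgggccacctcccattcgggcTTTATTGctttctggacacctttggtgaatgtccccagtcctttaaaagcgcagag
Slc26a3: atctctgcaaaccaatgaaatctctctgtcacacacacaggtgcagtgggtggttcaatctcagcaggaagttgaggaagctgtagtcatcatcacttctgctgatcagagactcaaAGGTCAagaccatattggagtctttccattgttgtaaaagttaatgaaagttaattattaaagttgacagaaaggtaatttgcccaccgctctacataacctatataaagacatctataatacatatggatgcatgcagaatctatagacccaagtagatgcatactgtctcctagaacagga
Fabp6: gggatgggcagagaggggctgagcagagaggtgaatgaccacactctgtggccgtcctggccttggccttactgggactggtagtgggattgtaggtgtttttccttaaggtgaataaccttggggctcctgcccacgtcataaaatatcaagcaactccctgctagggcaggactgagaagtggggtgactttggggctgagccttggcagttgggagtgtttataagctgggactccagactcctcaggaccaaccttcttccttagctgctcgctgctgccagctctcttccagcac
Agr3: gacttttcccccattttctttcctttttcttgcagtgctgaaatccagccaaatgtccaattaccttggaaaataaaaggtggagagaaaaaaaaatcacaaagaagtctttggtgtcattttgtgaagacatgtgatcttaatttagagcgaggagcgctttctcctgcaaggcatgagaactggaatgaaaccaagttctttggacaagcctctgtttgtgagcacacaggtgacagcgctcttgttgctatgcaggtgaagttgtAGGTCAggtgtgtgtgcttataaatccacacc
The window of Fabp6 held neither. AGGTCA occurred once each in the windows of Slc26a3 and Agr3 and in 16.3% of all 32851 promoters, and CAATAAA once in that of Aqp8 and in 4.6% of all promoters. Among the 30 genes with the largest differences without overlap, AGGTCA was found in 0 of 15 promoters of 13 genes with higher signal in VC+ mice and in 3 of 11 promoters of 9 genes with lower signal. It was found in 18 of 79 promoters of 62 genes of the PPAR lists. The hexamer repeated with a single base between the copies was in 13 of the 32851 promoters and in 0 of these sets. A match is a description of the letters only, and the sites that PPAR γ occupies often lie outside such windows.

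Among the 30 genes with the largest differences without overlap, VC+ replicate 1 was nearer to the VC- mean than VC+ replicates 2 and 3 by over 1 unit for 12 (4 higher and 8 lower genes). It was farther by over 1 unit for 5, and within 1 unit for 13. Of these 13, Aoc1, diamine oxidase, which degrades histamine and polyamines (chromosome 6), was 10.65, 10.80 and 10.96 in VC+ and 8.64, 8.72 and 7.81 in VC- mice, a difference of 2.41 (standard error 1.30, adjusted p = 0.784). The neighboring cytochrome P450 genes Cyp2d9, Cyp2d10 and Cyp2d12 (chromosome 15) were higher by 1.97, 2.24 and 2.66, and of these Cyp2d10 was within 1 unit. Near-identical copies of this family can share probes, so these are not independent. Among the lower ones within 1 unit, Lpo, lactoperoxidase, was 4.85, 3.54 and 4.46 in VC+ and 8.71, 7.78 and 7.66 in VC- mice (-3.77, standard error 1.17, adjusted p = 0.589). The sialyltransferase gene St3gal1 was 5.10, 5.38 and 5.18 against 7.72, 7.22 and 8.36 (-2.55, standard error 0.64, adjusted p = 0.386). Apoc2, the activator of lipoprotein lipase (chromosome 7), was lower on all VC+ arrays but less so on replicate 1, with 6.60, 5.12 and 4.85 against 8.95, 8.78 and 8.16 (-3.11, standard error 0.73, adjusted p = 0.386). The steroid dehydrogenase gene Hsd3b3 (-4.07) and the lipocalin gene Apod (-2.36) were also lower on each VC+ array by over 2 units relative to the VC- mean.

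**Figure D3:**
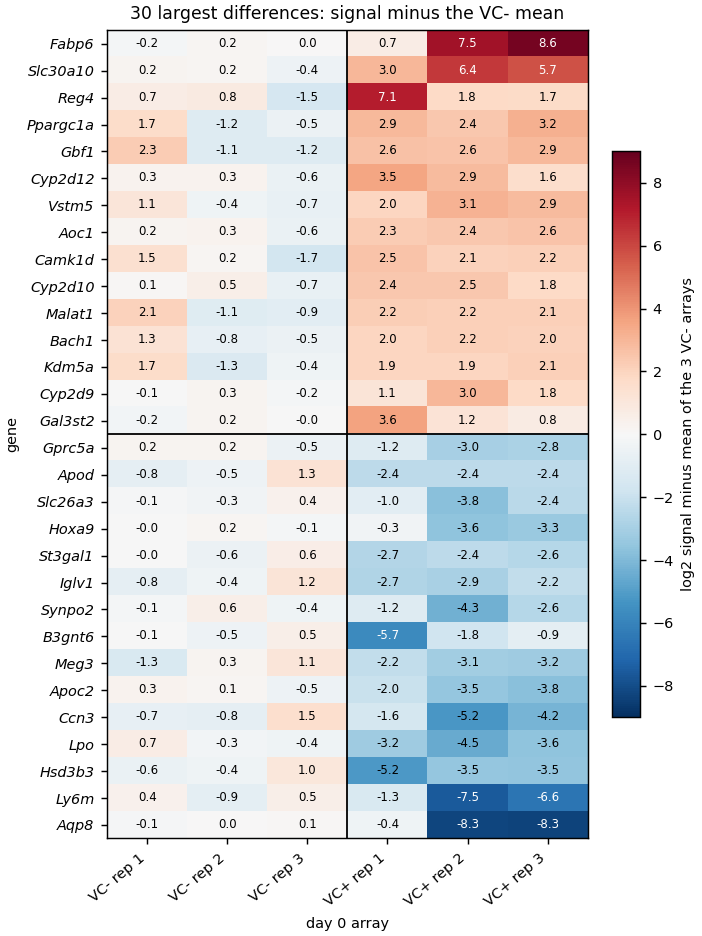
Log2 signal minus the mean of the 3 VC- arrays for the 30 genes with the largest differences without overlap (rows) on each day 0 array (columns), with red for higher and blue for lower signal. Aqp8 is at -0.4 on VC+ replicate 1 and at -8.3 on VC+ replicates 2 and 3, whereas St3gal1 and Aoc1 differ by less than 1 unit among the 3 VC+ arrays.

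A further set of the higher genes was set by the VC- arrays. For 8 of the 15, VC- replicate 1 exceeded the mean of VC- replicates 2 and 3 by over 1 unit. Malat1, a nuclear noncoding RNA (chromosome 19), was 13.61, 13.55 and 13.52 in VC+ mice, but 13.43, 10.26 and 10.44 in VC- mice. Gbf1, a regulator of Golgi transport, was 7.28, 7.24 and 7.57 in VC+ against 6.96, 3.50 and 3.49 in VC- mice. The histone demethylase gene Kdm5a was 8.87, 8.90 and 9.10 against 8.62, 5.66 and 6.59, and the heme-responsive repressor gene Bach1 7.32, 7.51 and 7.39 against 6.66, 4.58 and 4.81. VC- replicate 1 was within 1 unit of the VC+ mean for each of these 4 genes, so their differences rest on VC- replicates 2 and 3. Of the 7 probe sets of Malat1, 4 separated the groups, with differences of all 7 from 0.23 to 2.73.

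Among 31 genes of colonocyte absorption and transport that were tested, 4 lay above and 5 below, with a median of 0.0020. Slc26a3, the chloride and bicarbonate exchanger of the colon (chromosome 12), was 11.65, 8.83 and 10.20 in VC+ and 12.51, 12.33 and 13.04 in VC- mice (-2.40, adjusted p = 0.666). The surface epithelial gene Clca4a was lower on all VC+ arrays, with 11.70, 10.74 and 11.24 against 13.69, 13.13 and 13.64 (-2.26, adjusted p = 0.663). The basolateral Na-K-Cl importer Slc12a2 was higher, with 11.95, 12.08 and 12.44 against 11.63, 9.99 and 10.42 (1.48, adjusted p = 0.622). Its signal on VC- replicate 1 was nearer to the VC+ arrays than to the other VC- arrays, so the difference rests on the latter. Iron and zinc transport genes had a median of 0.44 over 12 genes tested, with 4 above and 1 below. Besides Slc30a10, these were the iron exporter Slc40a1 (11.89, 12.56 and 11.92 against 10.86, 11.15 and 10.58), the zinc importer Slc39a4 (10.52, 11.32 and 11.69 against 10.21, 9.92 and 9.42) and the iron importer Slc11a2, which was higher by 0.61.

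Xenobiotic metabolism genes split the VC+ arrays. Their median was 0.66 over 34 genes tested, with 8 above and 4 below, but 1.00 on VC+ replicates 2 and 3 and -0.31 on VC+ replicate 1. Gstp1, a glutathione transferase that was chosen after its values were seen, was 13.56, 14.46 and 14.49 in VC+ and 13.54, 13.44 and 13.32 in VC- mice (0.74, adjusted p = 0.663). Genes of goblet cells had a median of 0.0079 over 25 genes tested, with 3 above and 4 below. Reg4, a lectin of secretory cells, was 15.49 on VC+ replicate 1, 10.23 and 10.12 on VC+ replicates 2 and 3, and 9.10, 9.24 and 6.90 on the VC- arrays. The membrane mucin gene Muc4 was 11.84, 11.73 and 11.77 against 12.70, 13.47 and 12.89 (-1.25, adjusted p = 0.885), and Muc1 was near the background in VC+ mice and lower by 2.44. Muc2, the main secreted mucin, was not among the genes tested and differed by 0.09.

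Intestinal transcription factors leaned higher in VC+ mice, with 6 of 18 genes above, 0 below and a median of 0.23. They were Nr5a2 (1.33), Klf5 (0.90), Cdx1 (0.80), Esrra (0.80), Vdr (0.51) and Gata6 (0.25), and none was called. Nr5a2, a nuclear receptor that controls steroid synthesis in the crypt, was 9.87, 10.10 and 10.08 in VC+ and 9.40, 8.21 and 8.45 in VC- mice. Klf5, a factor of dividing crypt cells, was 10.20, 9.64 and 9.91 against 9.26, 9.15 and 8.66. The mean level of the list relative to the VC- mean was 0.25 on VC- replicate 1, within the range of the VC+ arrays (0.23, 0.37 and 0.44). It was -0.14 and -0.10 on VC- replicates 2 and 3, so the lean of this list rests on those arrays.

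Genes of cell division leaned lower in VC+ mice. Of 30 mitosis genes, 11 were below, 0 above and 25 negative, with a median of -0.33, and of 32 DNA replication genes, 7 were below, 0 above and 28 negative, with a median of -0.32. None was called. The sizes were modest, as for the spindle checkpoint gene Mad2l1 (9.52, 9.64 and 9.63 in VC+, 9.79, 10.29 and 10.73 in VC- mice) and the replicative helicase gene Mcm3 (6.65, 7.01 and 7.22 against 7.48, 7.84 and 7.75). Against the same 3 VC- arrays, the medians were -0.34 and -0.45 on VC+ replicate 1 and -0.30 and -0.39 on VC+ replicates 2 and 3, and at days 2 and 7 they were 0.61 and 0.14. Without VC- replicate 1, 23 of the 32 DNA replication genes lay below, against 19.8% of all genes tested, so this count turns on that array. The mean level of these genes relative to the VC- mean was -0.32 on VC- replicate 1, within the range of the VC+ arrays (-0.42, -0.28 and -0.38). It was 0.14 and 0.18 on VC- replicates 2 and 3, so the lean of the DNA replication genes rests on those 2 arrays.

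Cholesterol and fatty acid synthesis genes had a median of -0.51 over 25 genes tested, with 4 below, 0 above and none called. Lss, which closes the sterol ring, was 6.75, 6.55 and 6.79 in VC+ and 6.94, 8.13 and 8.16 in VC- mice (-1.05, standard error 0.39, adjusted p = 0.663). Insig1, which holds back sterol synthesis, was lower by 0.90, the sterol enzyme gene Nsdhl by 0.84 and the fatty acid elongase gene Elovl6 by 0.59. The list was lower on VC+ replicates 2 and 3 (-0.71) than on VC+ replicate 1 (-0.06). Without VC+ replicate 1, 15 genes lay below, against 19.4% of all genes, and VC- replicate 1 was the lowest VC- array for Lss, Insig1 and Nsdhl.

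Immune genes did not move one way. MHC class II genes were positive in 9 of 9 genes tested, with a median of 0.92, but 2 lay above without overlap and none was called. H2-DMb2, a chaperone of peptide loading, was 7.01, 6.09 and 5.78 in VC+ and 5.23, 4.84 and 5.11 in VC- mice (1.23, standard error 0.30, adjusted p = 0.386). Cd74, the invariant chain, was 12.69, 12.36 and 11.65 against 11.76, 11.48 and 9.86, and the groups overlapped (chosen after its values were seen). VC- replicate 3, the array with Prss2 signal, was low for Cd74, and without it the median of the list was 0.55, with 4 genes above (13% of all genes). Interferon response genes were positive in 3 of 23, with a median of -0.77, 4 below and 1 above. Oas2, a sensor of viral RNA, was 7.91, 8.24 and 7.97 in VC+ and 8.99 to 9.48 in VC- mice (-1.12, adjusted p = 0.784), whereas Irf8, a factor of myeloid cells, was higher by 0.52. The interferon median was -0.34 without VC+ replicate 1. The mean level of the interferon list relative to the VC- mean was -0.87, -0.067 and -0.86 on the VC+ arrays. On the VC- arrays it was -0.31, 0.31 and 0.0045, so VC+ replicate 2 lay within their range. T cell and intraepithelial lymphocyte genes had a median of 0.60 over 10 genes tested, with 2 above. The median was 1.04 with 8 above without VC+ replicate 1 and -0.04 on that array alone, and 13 of 24 on the array were near background on all 6 arrays. Ikzf3, a lymphocyte factor of the B and plasma cell list, was 4.64, 4.89 and 5.30 in VC+ and 2.92, 3.24 and 3.01 in VC- mice (1.89, standard error 0.38, adjusted p = 0.386). That list had 2 of 11 genes above, 0 below and a median of 0.27. Its mean level relative to the VC- mean was 1.10, 0.58 and 0.014 on the VC+ arrays, so VC+ replicate 3 did not differ. Iglv1, an immunoglobulin gene outside the list, went the other way (-2.60). Tnf and Il6 were below 2.6 on every day 0 array, and Il1b was between 3.50 and 4.61.

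Lysosomal genes had 10 of 34 genes above and 1 below, with a median of 0.16. Hexa, which degrades gangliosides, was 11.87, 12.06 and 12.16 in VC+ and 11.51, 11.18 and 11.32 in VC- mice (0.69, standard error 0.19, adjusted p = 0.478). The lysosomal membrane protein gene Lamp1 was 12.29, 12.08 and 12.24 against 11.88, 11.74 and 11.62 (0.46, adjusted p = 0.704), whereas the groups overlapped for Lamp2 (0.22, and -0.23 on VC+ replicate 1). Man2b1 (0.54), Ctsa (0.56) and Ctse (1.06) also lay above. The median was 0.13 on VC+ replicate 1 and 0.16 on VC+ replicates 2 and 3, and without VC- replicate 1, 13 genes lay above (18.9% of all genes). The mean level of the list relative to the VC- mean was 0.086, 0.25 and 0.32 on the VC+ arrays. On the VC- arrays it was 0.029, -0.14 and 0.11, so VC+ replicate 1 was below VC- replicate 3. The macrophage and monocyte markers had 1 of 21 above, 1 below and a median of -0.05. Irak1, a kinase of interleukin-1 signaling, was higher by 0.55 with groups that did not overlap, but lower by 0.31 with its brightest probe set.

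Smooth muscle markers were lower in VC+ mice on all 20 genes tested by sign, with 8 below, 0 above and a median of -0.49. Kcnmb1, a potassium channel subunit of smooth muscle (chromosome 11), was 3.73, 3.85 and 4.30 in VC+ and 6.16, 5.52 and 5.90 in VC- mice (-1.90, standard error 0.49, adjusted p = 0.400). Synpo2 (-2.69), Pln (-1.80), Cnn1 (-0.92), Tpm1 (-0.79), Actg2 (-0.78), Tpm2 (-0.69) and Myl9 (-0.53) were the others that did not overlap, the last 4 named to complete the count. The log2 of the summed signal of this list was 15.83, 15.78 and 16.24 in VC+ and 16.76, 16.54 and 16.35 in VC- mice, so the signal of smooth muscle genes was lower on each VC+ array, by little between VC+ replicate 3 and VC- replicate 3. Villin Cre is not active in smooth muscle, and the part of this signal in the other differences was not tested. Matrix and fibroblast genes had 6 of 27 below, 0 above and a median of -0.22.

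Of the remaining lists, several also split between the VC+ arrays. Enteroendocrine genes had a median of 0.40 over 15 genes tested, with 0.97 on VC+ replicates 2 and 3 and -0.48 on VC+ replicate 1, and small intestine markers one of 0.32 over 11 genes, with 1.31 and -0.08. Of 20 genes of the small intestine list on the array, 9 were near background on all 6 arrays. The 20 include Pdgfb, which synonym matching put in place of the marker Sis. Genes of the unfolded protein response were positive in 20 of 24, with 0 above, and their median was 0.72 on VC+ replicate 1 and -0.01 on replicates 2 and 3. MHC class I genes had 3 of 15 above and crypt base and Wnt target genes 3 of 17, with 0 below in both. Mucin glycan enzymes (2 of 27 above, 4 below), antimicrobial genes (2 of 20 above, 1 below) and cytokine and chemokine genes (3 of 27 above, 3 below) had medians of -0.06, 0.12 and -0.01. Antioxidant enzymes, oxidative phosphorylation, glycolysis and hypoxia, and claudins and tight junctions had medians of 0.07, -0.04, -0.12 and 0.15. Markers of neutrophils, mast cells and blood cells were mostly near background, with 9 of 11, 10 of 11 and 4 of 5 under a log2 signal of 4 on all 6 arrays, and so were 16 of 18 squamous epithelium markers.

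**Figure D4:**
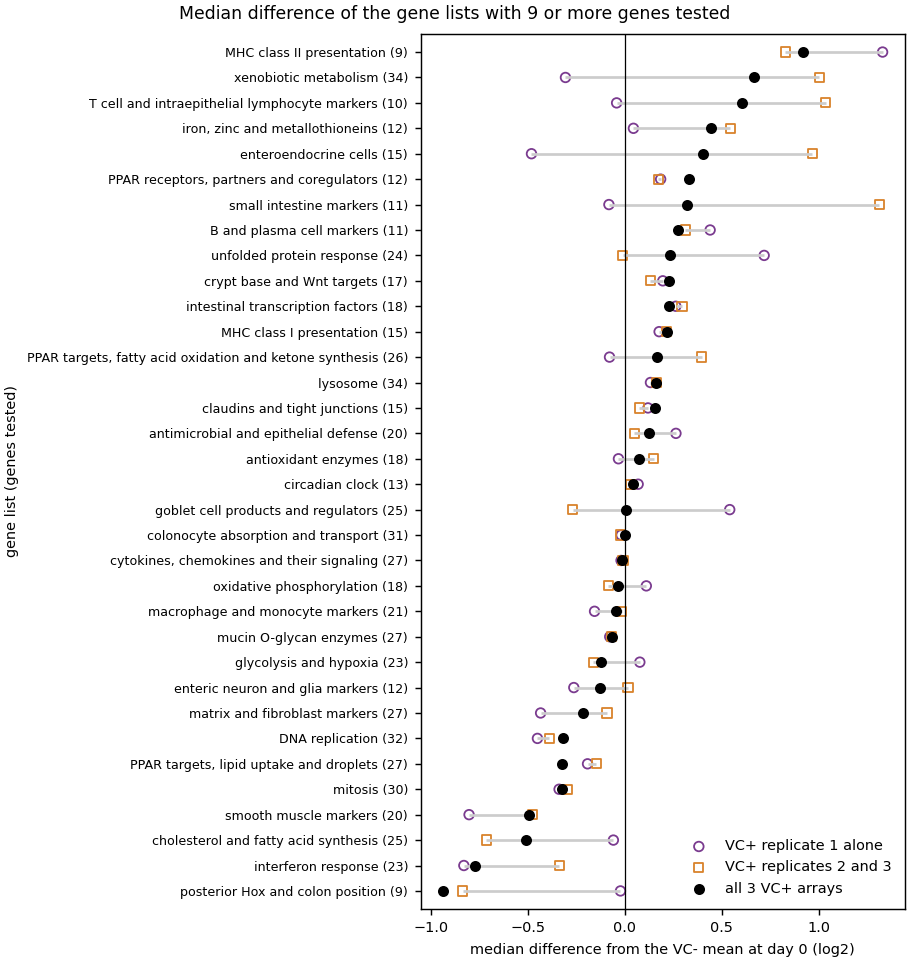
Median difference from the VC- mean at day 0 (horizontal axis, log2) of the 34 gene lists with 9 or more genes tested, for all 3 VC+ arrays (black points), VC+ replicate 1 alone (open circles) and VC+ replicates 2 and 3 (open squares), all against the same VC- arrays. The medians of smooth muscle, mitosis, lysosome and MHC class II genes have the same sign in all 3, whereas those of xenobiotic metabolism, small intestine and goblet cell genes change sign between VC+ replicate 1 and replicates 2 and 3.

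The 16 arrays of days 2 and 7 measured the genotype difference under DSS. Their values do not enter the day 0 differences, but all 22 arrays shared the choice of probe sets, the filter and the variance of each gene. Same-numbered VC- arrays of days 0 and 2 also deviated alike from their group means, with correlations of 0.55, 0.36 and 0.21. For VC+ arrays these correlations were 0.47, 0.41 and -0.038. The day 2 arrays may thus not be independent of those of day 0. The part of this in the signs shared with day 0 was not tested. None of the 9097 genes was called there (limma, 0%), and 777 genes (8.54%) had an unadjusted p under 0.05. Of the 879 genes with all VC+ arrays above at day 0, 608 (69.2%) were also higher in VC+ mice at days 2 and 7, against 53.7% of all genes tested. Of the 967 genes below at day 0, 550 (56.9%) were also lower, against 46.3% of all genes. Of the 15 largest positive differences 12 kept their sign, and of the 15 largest negative ones 7 did. Pparg was lower by 1.19 at days 2 and 7 (standard error 0.53, unadjusted p = 0.0361, adjusted p = 0.572). At day 2 its lowest and highest signals were 6.87 and 9.54 in VC+ mice and 9.87 and 10.96 in VC- mice, without overlap. At day 7 they were 6.26 and 10.35 against 7.39 and 9.82, with overlap. Its mean was 7.71 against 10.36 at day 2 and 8.81 against 8.54 at day 7, so the day 7 mean was higher in VC+ mice. Hoxb13 differed between the genotypes at day 2 as well, with 2.88 to 3.08 on the VC- arrays and 9.45 or more on 4 of the 5 VC+ arrays. The VC+ array with low Hoxb13 had the Pparg signal of 9.54, and the other 4 had 8.27 or less. The part of Hoxb13 in the day 2 difference was not tested. Ppargc1a was higher by 1.67 over both days (unadjusted p = 0.0138, adjusted p = 0.572), but by 3.26 at day 2 and 0.08 at day 7. Gbf1 was likewise higher by 2.96 and 0.73, and Cyp2d9 by 2.52 and 0.67. Lpo differed by -3.93 at day 2 and 0.87 at day 7, and Fabp2 by -1.77 and 0.31. Fabp6 differed by -2.50 and 1.27, Aqp8 by 0.62 and -1.37, and Slc30a10 by -0.33 and -0.17, so for Fabp6 and Aqp8 the mean over both days (-0.61 and -0.38) averages opposite signs. Smooth muscle markers, with a median of 0.08, and mitosis genes, with 0.61, did not keep their sign. Every array of days 2 and 7 had an Agr3 signal of 3.34 or less, so no genotype difference of Agr3 could be measured there. A change of the genotype difference between day 0 and days 2 and 7 was called for 1 gene, Agr3 (adjusted p = 0.0283 in limma, 0.011% of the genes tested), and for this reason it shows no more than the day 0 signal of VC- mice. Before adjustment, 439 genes (4.83%) had a p under 0.05.

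**Figure D5:**
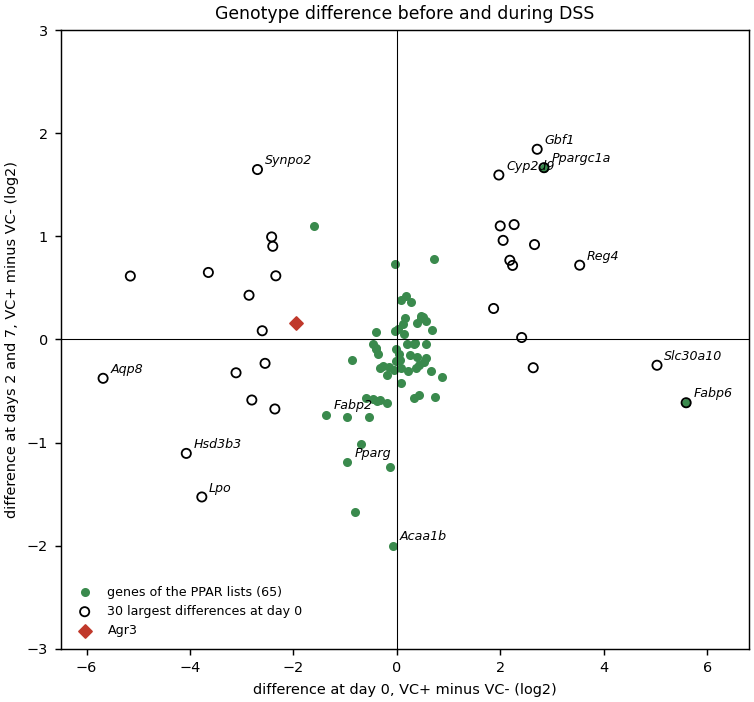
Genotype difference (VC+ minus VC-, log2) at day 0 (horizontal axis) against that at days 2 and 7 together (vertical axis) for the 65 tested genes of the PPAR lists (green), the 30 genes with the largest differences without overlap at day 0 (open circles) and Agr3 (red). Ppargc1a and Gbf1 lie in the upper right with positive differences on both axes and Pparg in the lower left, whereas Aqp8, Fabp6 and Slc30a10 lie between -0.61 and -0.25 on the vertical axis, where those of Aqp8 and Fabp6 average opposite signs at days 2 and 7.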

How the data were processed

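Total RNA from homogenized colonic tissue was hybridised to Affymetrix mouse expression arrays. The authors processed all arrays together with GC-RMA in R 2.10.1 (submitters' processing notes and methods), so the deposited values are log2 signals, corrected for background and normalized across arrays. Arrays have no read depth, and precision is set by how many arrays there are. Of 45101 probe sets, 34958 carry a single gene symbol in the annotation of the array, 932 carry several and 9211 are not listed there, and the last 2 kinds were left out. Where a gene had several probe sets, that of largest interquartile range over the 22 arrays stood for it (18194 genes), and the upper 50% by that range, 9097 genes, were tested, as in the defaults of the authors' filter. Means of the 6 groups were estimated from all 22 arrays in limma 3.58.1 (R 4.3.3), with two-sided p-values, Benjamini-Hochberg adjustment within a comparison and a threshold of 0.05. Log2 values under 4 are called near background (55.3% of day 0 values). "Above" and "below" mean that all 3 VC+ arrays lie on that side of all 3 VC- arrays. The procedure was tested on simulated data.

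The comparison, the 41 gene lists (907 of 994 members on the array, the others not analysed here) and the tests were chosen with earlier results of these data known. Matching by synonym put other genes in place of some members, such as Pdgfb for Sis, Trh for Trf, Pigq for Gpi1 and Duox1 for Duox2. Named genes are Pparg, the PPAR list genes that were tested, genes the study followed, every called gene, the 15 largest positive and 15 largest negative differences without overlap and with a group mean of 6 or more, and up to 4 genes per list with the largest difference without overlap. Prss2, Xist and Hoxb13 describe the arrays, and genes outside these rules are marked as chosen after their values were seen or name the limits of a list. Alternatives covered the filters, the probe set, the normalization, weights, priors, a replicate block, Hoxb13 and Xist as covariates, and arrays left out. Promoters came from RefSeq (GRCm38.p6).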

Additional observations from a re-analysis of the deposited data

Results flagged for a closer look

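The genotype difference of Agr3 was 2.11 higher on the log2 scale at days 2 and 7 than at day 0 in a direct test (limma, standard error 0.32, adjusted p = 0.0283), a call that was lost with the replicate block and with the filter on dim probe sets. Its signal was 4.43 ± 0.62 (SD, n = 3) in VC- and 2.47 ± 0.23 (SD, n = 3) in VC+ mice at day 0. It was 2.37 ± 0.015 (SD, n = 3) and 2.60 ± 0.44 (SD, n = 5) at day 2, and 2.27 ± 0.077 (SD, n = 4) and 2.36 ± 0.025 (SD, n = 4) at day 7. All groups but VC- at day 0 were near the background, so at days 2 and 7 no genotype difference could be measured, and the test shows no change of it.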

How the results depend on the processing

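The count of 1 gene between genotypes at day 0 became 3 without the variance filter (Agr3, Ceacam18 and Ctf1), 686 with array quality weights, and 0 with a filter on dim probe sets (which removed Agr3), with the replicate block or without the 3 arrays with Prss2 signal (limma, 427 to 654 genes at an unadjusted p under 0.05). It was 1 with only the day 0 arrays, and that gene was Cps1, with VC- values near the background, and not Agr3. Without the 2 VC+ day 0 arrays with low Hoxb13, a setting chosen after seeing the data that leaves 1 VC+ array assumed to vary like the other groups, it was 1 (Ptpro). Leaving out each array gave 0 to 3, with 3 without VC+ replicate 1, 2 without VC- replicate 2 and 0 without VC+ replicate 3 or VC- replicates 1 or 3 (263 to 808 genes unadjusted). The count of 0 at days 2 and 7 ranged from 0 to 8, where the highest count left out VC- day 7 replicate 1, and leaving out replicates 1 and 3 of VC- day 2 gave 6 and 1. The count of 1 gene whose genotype difference changed became 2 without the variance filter, 124 with array quality weights and 0 with the dim filter, with the replicate block, without the Prss2 arrays or without the low-Hoxb13 arrays, and ranged from 0 to 2 when arrays were left out. It was 2 without VC+ day 0 replicate 1 or VC- day 2 replicates 1 or 2, and 0 without VC+ day 0 replicates 2 or 3, VC+ day 2 replicate 3, any VC+ day 7 array, VC- day 0 replicates 1 or 3, VC- day 2 replicate 3 or VC- day 7 replicates 3 or 4. The direction reversed with the brightest probe set for Irak1 (-0.31), Ncoa2 (0.093) and Sdc1 (-0.11). It also reversed with that probe set for Dgat2 (0.096) and Hadh (-0.12), and without the low-Hoxb13 arrays for Ppara (-0.34) and Lamp2 (-0.23). These 7 were the reversals among the 146 genes taken through every setting. Small differences of genes whose groups overlap also turned, as for Acaa2 (0.080, and -0.36 with the Hoxb13 covariate) and Cpt1a (0.035 and -0.15). With array quality weights 58 of the 146 genes were newly called. Over 40 lists, 41 medians under an alternative moved by more than their spread and 719 did not, 16 of the 41 without the low-Hoxb13 arrays. The replicate numbers did not pair the groups compared at day 0, where same-numbered arrays correlated at -0.069 to -0.028 (3 pairs). Over all groups 18 of 48 same-numbered pairs exceeded 0.1, and between VC- day 0 and VC- day 2 all 3 did (0.55, 0.36 and 0.21), each above the other pairings, which is a hint from the data that these numbers may be shared. Between VC+ day 0 and VC+ day 2 the same-numbered pairs correlated at 0.47, 0.41 and -0.038, so replicate 3 did not follow. With the replicate block the adjusted p of Agr3 was 0.079. The cause of these changes was not tested. Many values lie near the background, where differences are compressed.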

Other observations

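Of 13 clock genes tested at day 0, 2 were above and 2 below, against 9.66% and 10.6% of all genes, and none was called. The time of day of sampling is not given in the sources used here. Cry1, a repressor of the clock, was 9.21, 8.91 and 8.37 in VC+ and 10.24, 10.26 and 10.67 in VC- mice (-1.56, adjusted p = 0.402 in limma), and the clock activator gene Arntl was lower, with a difference of -1.09. The output genes Dbp (10.24, 10.23 and 11.23 against 9.63, 9.32 and 7.85) and Tef (8.19, 7.91 and 8.46 against 7.45, 7.77 and 5.60) were the 2 above. The difference of Dbp was -2.61 at day 2 and 0.24 at day 7.

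Cps1, a urea cycle enzyme of liver and small intestine that was chosen after its values were seen, was 5.94, 5.96 and 5.77 in VC+ and 1.95, 1.93 and 1.93 in VC- mice. It did not follow Hoxb13 among the VC+ arrays. Its adjusted p in limma was 0.593 with all 22 arrays and 0.000465 with only the day 0 arrays. The VC- values were all under a log2 signal of 4, near the background, and hardly varied. The small p with only the day 0 arrays rests in part on this spread, and the size of the difference is poorly measured. The difference at days 2 and 7 was -0.35.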
